A study of Rattus norvegicus with 9 samples.

Results

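Gene expression in primary rat Schwann cells that received RNAi oligonucleotides against Nf1 together with the MEK inhibitor U0126 was compared with that of cells that received scrambled control oligonucleotides. The comparison rests on 6 of the 9 arrays of the series, 3 labelled NF1 RNAi +UO126 and 3 labelled Control RNAi, each hybridised with total RNA taken 48 hours after a transient transfection of cells prepared from sciatic nerve. The other 3 arrays, of NF1 RNAi cells without the inhibitor, show which differences were already there without U0126. Each group held 3 independent biological replicates, per the series' design text. Control cells given U0126 were not analysed here, so that effects of the knockdown and of the inhibitor cannot be told apart in this comparison. The sources used here do not give the dose of U0126, the time it was present or the sequences of the oligonucleotides. Nor do they say whether the cells without U0126 received its vehicle, so effects of the inhibitor and of its vehicle cannot be told apart here. Described are all 14213 genes with at least 1 probe set that the platform annotation pairs with exactly 1 gene, and 31042 probe sets were tested in all. Array values are linear intensities without a unit. Differences are on the log2(intensity + 1) scale, where dim probe sets change by less than their intensity does, and carry ± the standard error of the limma fit (n = 3 arrays per group). A gene passed where its limma p-value, after Benjamini-Hochberg adjustment across the 14213 genes, was under 0.05.

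Schwann cells ensheath and myelinate the axons of peripheral nerves. Neurofibromin, the protein of Nf1, speeds the hydrolysis of GTP on Ras and so switches Ras off, and cells without it keep Ras active for longer. Active Ras signals through the kinases RAF, MEK and ERK, and by other routes such as PI3K. U0126 inhibits MEK, the step before ERK. ERK switches on immediate-early genes such as Egr1 and its own inhibitors, the dual-specificity phosphatases and Sprouty proteins, and strong ERK signalling is known to move Schwann cells away from the myelinating state.

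The targeted gene was low in both knockdown groups. Nf1 intensities were 99.3, 95.6 and 70.0 on the control arrays, 41.1, 41.5 and 42.4 with NF1 RNAi and 42.5, 51.7 and 40.9 with NF1 RNAi + U0126. The 3 arrays with U0126 lay below the lowest control array, with a log2 difference of −0.95 ± 0.13 (adjusted p = 0.00066). Schwann markers were present: each of the 9 measured ones reached log2 6 on at least 1 array, and Sox10, the lineage factor of Schwann cells, stood at 2829, 2648 and 2632 in control and 2435, 2409 and 2130.1 with U0126. Of these 9 markers 4 were lower and 1 was higher than in control (median −0.37), and 4 were lower with U0126 than with NF1 RNAi alone. With the replicate number as a block 6 were lower and 2 higher than in control, and 2 were higher without Control RNAi replicate 1, 2 or 3. Among all genes 17.9% passed as higher and 17.6% as lower than in control. Between the knockdown groups these shares were 6.71% and 7.02%. Of the markers of other cell types, 12 of 17 for macrophages, 8 of 14 for endothelial and mural cells, 8 of 14 for neurons, 7 of 8 for skeletal muscle and 7 of 7 for adipocytes stayed below log2 6 on all 9 arrays. The summed intensity of the macrophage list was 1118 to 2312 in control, 5607 to 6412 with NF1 RNAi and 7030.2 to 7215 with U0126. Most of it with U0126 was Itgax, an integrin that also marks dendritic cells, while Ptprc, Csf1r and Adgre1 stayed below log2 6 on all arrays. Of these 17 markers 5 were higher with U0126 than in control and 0 were lower, and Tyrobp (0.29) and Fcer1g (0.28) were among the 5. These rises came to 3 without Control RNAi replicate 1 and to 2 without Control RNAi replicate 3 or NF1 RNAi + U0126 replicate 2. Of 16 fibroblast markers 4 were lower and 1 was higher, 5 stayed below log2 6 on all arrays, and the summed list was 40701 to 50064 in control and 23829 to 36007 with U0126. What these cells contributed to the differences below was not tested.

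Arrays with replicate number 1 stood apart. Across genes, the SD of the log2 difference between replicates was 0.32 and 0.37 for the pairs that include Control RNAi replicate 1, against 0.14 between control replicates 2 and 3. With U0126 it was 0.23 and 0.27 against 0.16. The beta-actin probe sets, whose 3′ to 5′ ratio reports on RNA length, differed by 0.90, 0.62 and 0.60 log2 units in control. They differed by 0.85, 0.78 and 0.84 with NF1 RNAi and by 0.85 to 0.87 with U0126. All knockdown arrays thus lay above control replicates 2 and 3, and the part of this in the results was not tested.

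With MEK blocked in knockdown cells, genes above control and genes below it were about equal in number. In all 5047 of 14213 genes passed (35.5%), of which 2545 (17.9%) were higher and 2502 (17.6%) were lower with NF1 RNAi + U0126. The falls were the larger ones: among the 874 genes (6.15%) that also differed at least 2-fold, 284 were higher and 590 were lower. Tyrp1, an enzyme of melanin synthesis, had the largest rise of all 14213 genes, by 6.11 ± 0.11 log2 units. Egr1, the immediate-early zinc finger factor downstream of ERK, had the largest fall among them, by 4.70 ± 0.45 on the log2 scale. This rank rested on Control RNAi replicate 1, the brightest control array for Egr1 by far, and without it Ttyh1 fell further than Egr1. Centring each array on its median gave 3744 higher and 2039 lower genes, so that 64.7% of the calls were higher in place of 50.4%, and moved the median difference of all genes from 0.04 to 0.12. Leaving out Control RNAi replicate 1 gave 5089 genes, and leaving out the replicate 1 array of every group gave 5428.

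**Figure D1:**
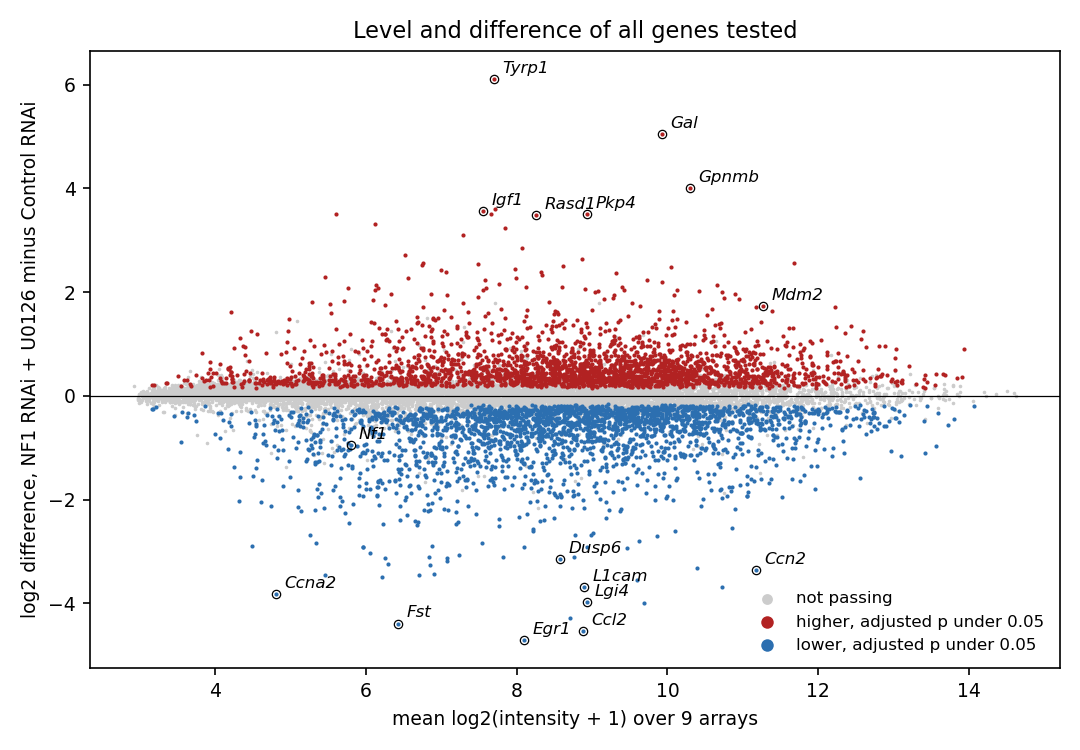
Log2 difference between NF1 RNAi + U0126 and Control RNAi (vertical) against the mean log2(intensity + 1) over 9 arrays (horizontal) for 14213 genes, 1 point each, with genes passing the test in red (higher) and blue (lower) and named genes circled. Tyrp1 stands alone at the top at 6.11, and the lowest points, led by Egr1 at −4.70, reach further down than most rises reach up.

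The third group sorts these differences by how they stood without and with U0126. The comparisons share arrays, so the counts that follow describe the fit and are not separate evidence. Of the 5047 genes, 2287 were kept, that is, they also passed without the inhibitor in the same direction and did not pass between the knockdown groups (1038 higher, 1249 lower). A further 846 were new with U0126: they passed against control and against NF1 RNAi in the same direction but not in NF1 RNAi against control (451 higher, 395 lower). U0126 added to the difference of 420 genes (212 higher, 208 lower), took 77 genes part of the way back (49 higher, 28 lower) and turned 88 over to the other side of control (31 higher, 57 lower). The remaining 1329 passed against control alone. Beside these, 332 genes came back, that is, they passed with NF1 RNAi, passed in the opposite direction between the knockdown groups and no longer passed against control. Of them 196 had risen and 136 had fallen with NF1 RNAi. Between the knockdown groups 1951 genes passed (13.7%), of which 953 (6.71%) were higher and 998 (7.02%) lower with U0126. In NF1 RNAi against control 3734 passed (26.3%), 1850 (13.0%) higher and 1884 (13.3%) lower. Missing the threshold in 1 comparison does not show that a gene was the same in both groups. The count between the knockdown groups fell to 1110 without NF1 RNAi replicate 2 and to 1226 without NF1 RNAi + U0126 replicate 2, so that the sorting depends on these arrays. Without the replicate 1 arrays of all groups 2099 genes were kept, 1080 were new and 619 were added to. In the same fit 140 came partly back, 148 turned over and 414 came back.

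**Figure D2:**
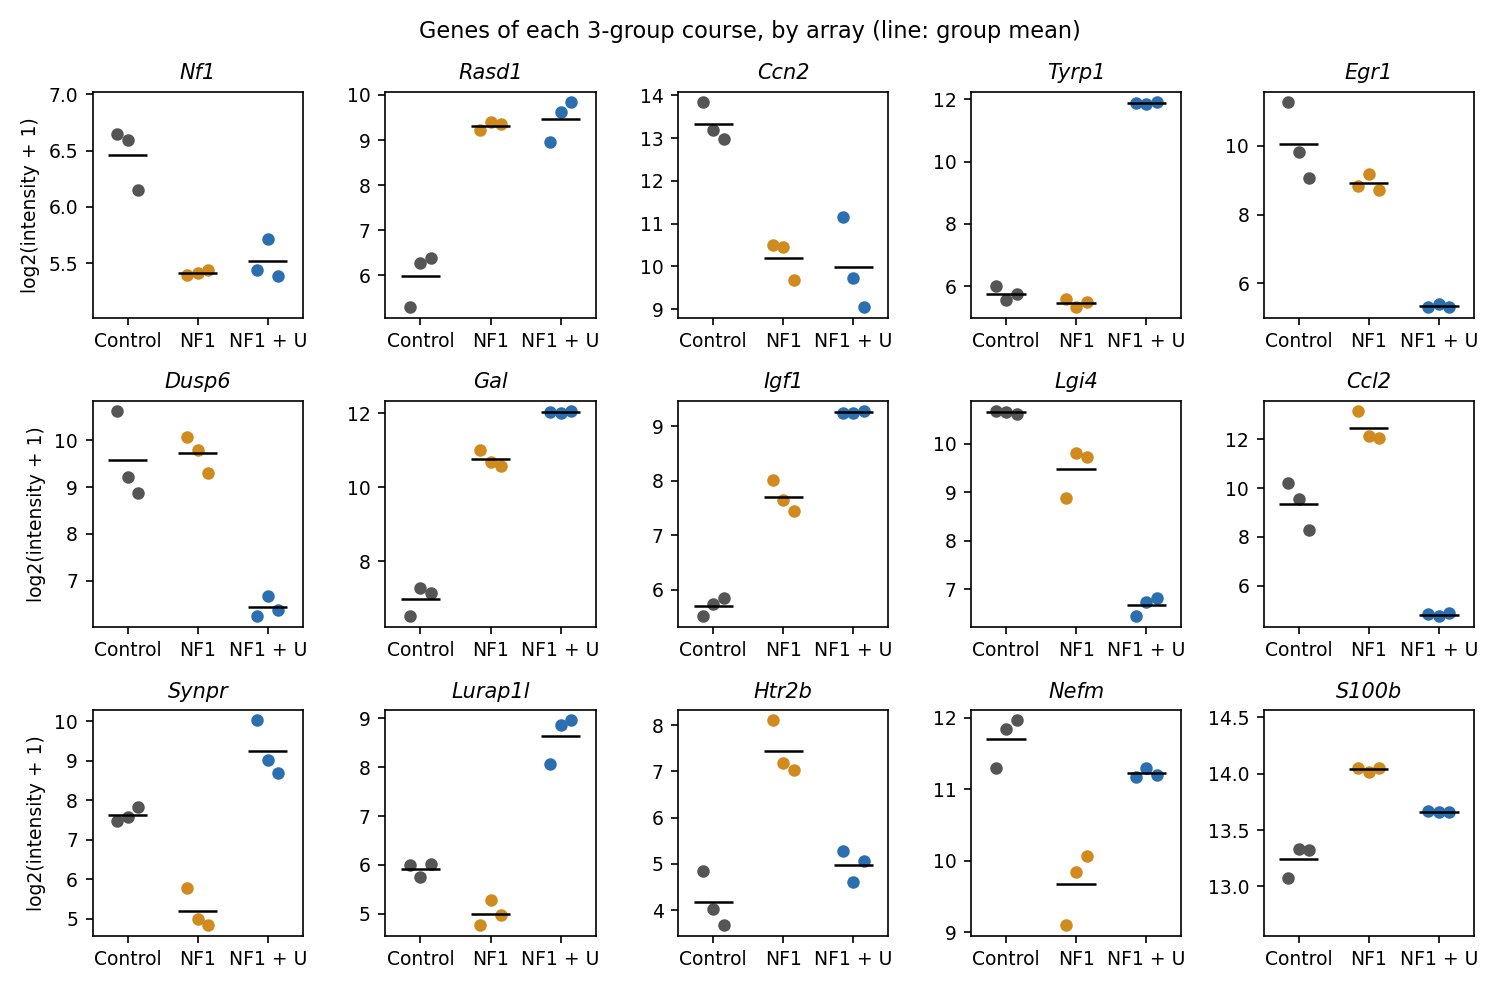
Log2(intensity + 1) of 15 genes on each of the 9 arrays (3 points per group in the order of replicates 1 to 3, line at the group mean; NF1 + U is NF1 RNAi + U0126). Nf1, Rasd1 and Ccn2 were kept, Tyrp1, Egr1 and Dusp6 were new with U0126, Gal, Igf1 and Lgi4 were added to, Ccl2, Synpr and Lurap1l turned over, Htr2b and Nefm came back, and S100b came partly back.

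Genes that ERK is known to switch on were low. Of 22 measured ERK feedback and target genes, 10 fell and 1 rose against control, with a median difference of −0.44 beside 0.04 for all genes. All list counts against control stand beside 17.6% lower and 17.9% higher among all genes. Those between the knockdown groups stand beside 7.02% lower and 6.71% higher. Dusp6, the phosphatase that removes the activating phosphates from ERK, read 1571, 595 and 469 in control, 1078, 884 and 628 with NF1 RNAi and 74.6, 101 and 82.5 with U0126. The U0126 arrays lay far below both other groups, which overlapped each other. Its difference from control was −3.14 ± 0.40 (adjusted p = 0.00036), and its 2 other probe sets differed by −2.74 and −3.81. Spry2, a Sprouty protein that dampens receptor tyrosine kinase signalling, went from 2796, 2637 and 2241 in control to 755, 682 and 742, a difference of −1.81 ± 0.13. Hbegf, an EGF receptor ligand, fell by 2.37 ± 0.29 on the log2 scale, and Etv5, an ETS factor under ERK, fell by 1.91 ± 0.44, although the other Etv5 probe set differed by 0.03. Ccnd1, the D cyclin that carries growth signals into the cell cycle, was 4806, 2942 and 2368 in control, 6833, 4983 and 4701 with NF1 RNAi and 1062, 952 and 1023 with U0126. It thus passed upward with the knockdown (0.75 ± 0.24) and downward with the inhibitor (−1.67 ± 0.24). Epha4, an Eph receptor tyrosine kinase, was the member that rose, by 1.94 ± 0.29, and 2 of its 3 other probe sets differed by 1.90 and 1.89.

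Of the 21 genes of the immediate-early and AP-1 list, 7 fell and 1 rose (median −0.31). Egr1 gave 2457, 909 and 529 in control, 453, 578 and 423 with NF1 RNAi and 39.0, 41.5 and 38.5 with U0126. Control replicate 1 was the highest by far, and the U0126 arrays were within a few units of each other at the bottom. The difference was −4.70 ± 0.45 from control (adjusted p = 7.6e-05) and −3.56 ± 0.45 from NF1 RNAi (adjusted p = 0.0012). Myc, the growth-promoting transcription factor, was 202, 259.5 and 249 in control and 50.0, 62.5 and 66.8 with U0126 and fell by 1.97 ± 0.19. Klf6, a zinc finger factor, and Fosl1, a Fos family member of AP-1, fell by 1.13 ± 0.09 and 0.94 ± 0.15. Atf3, a stress factor, rose by 0.59 ± 0.17, a call that was lost without any 1 of the 3 U0126 arrays, and had risen by 0.67 without the inhibitor. Jun read 7139, 9022 and 9362 in control and 8905, 9227 and 9245 with U0126, with overlapping arrays, and did not pass (adjusted p = 0.41).

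Of 21 components of the Ras pathway itself 3 were higher and 2 were lower (23.8% passing, beside 35.5% of all genes). With the replicate number as a block 5 were higher and 5 lower, and under median centring 7 were higher. Beside Nf1 itself, the lower one was Nras, 1 of the Ras GTPases, at 2231, 2380.3 and 2229 in control, 611, 822 and 757 with NF1 RNAi and 588, 782 and 695 with U0126. Both knockdown groups lay well below control, and U0126 made no difference that passed (−0.08 ± 0.13, adjusted p = 0.74). A difference shared by both groups that received the Nf1 oligonucleotides cannot be told apart from an effect of those oligonucleotides on other transcripts. Rasd1, a Ras-like GTPase inducible by glucocorticoids, rose from 38.2, 76.1 and 82.8 in control to 598, 670.0 and 650.1 with NF1 RNAi and 492, 781 and 914 with U0126, a kept difference of 3.48 ± 0.30. Sos1, which loads GTP onto Ras, rose by 0.57 ± 0.06, and Map2k1, which encodes MEK1, differed by 0.09 ± 0.06 and did not pass.

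The cell division programme was low with and without the inhibitor. Of 27 measured G2 and mitosis genes 19 fell and the other 8 did not pass, with a median difference of −2.11, the lowest of the 44 gene lists compared. All but 1 of the 27 had non-overlapping arrays, beside 47.2% of all genes. Between the knockdown groups limma called 0 of the 27, and 0 had an unadjusted p under 0.05. Mki67, the proliferation antigen, was 746, 106 and 111 in control, 30.3, 18.4 and 16.3 with NF1 RNAi and 20.5, 16.3 and 17.1 with U0126. Ccna2, the cyclin of S phase and G2, was 468, 73.8 and 89.5 in control, 17.1, 12.7 and 11.0 with NF1 RNAi and 13.0, 7.48 and 8.39 with U0126. Cdk1, the kinase that drives entry into mitosis, was 1371, 244 and 263 in control, 83.0, 61.1 and 42.3 with NF1 RNAi and 67.6, 55.5 and 54.9 with U0126. In each of the 3 genes Control RNAi replicate 1 was several times brighter than the other control arrays, while the 6 knockdown arrays were all below the lowest control. Without Control RNAi replicate 1, 23 members fell with a median of −1.21, and without all replicate 1 arrays 24 fell with a median of −1.23. The direction thus did not rest on that array, while much of the size did. In bulk RNA, fewer dividing cells and less of these RNAs per cell cannot be told apart.

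Replication genes followed with smaller differences. Of 26 DNA replication and S phase genes 16 fell, with a median of −0.54, which was −0.35 without the replicate 1 arrays. Uhrf1, which maintains DNA methylation at replication forks, fell by 1.72 ± 0.41 and Rfc3, a clamp loader subunit, by 1.35 ± 0.10, and without the inhibitor they differed by −1.71 and −1.11. Ccne2, cyclin E2, was new with U0126, at 286, 133 and 135 in control, 143, 124 and 116 with NF1 RNAi and 62.9, 40.4 and 48.3 with U0126. Its other probe set differed by −0.49. Among cyclins and inhibitors, Ccnd2 fell by 1.60 ± 0.15, and Cdkn2b, the CDK4 and CDK6 inhibitor p15, rose from 213, 209.5 and 219.9 to 378, 414 and 398, a difference of 0.89 ± 0.07 that was new with U0126.

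The Cdk1 promoter is shown because genes of G2 and mitosis are known to share 2 elements near their starts, CCAAT boxes bound by NF-Y and the cell cycle homology region TTTGAA. It is the 250 bases before the gene start on the gene's strand, from RefSeq (GRCr8, chr20:19265043-19265292, plus strand), with matches to CCAAT (here read on the other strand as ATTGG) and TTTGAA in capitals.
Cdk1: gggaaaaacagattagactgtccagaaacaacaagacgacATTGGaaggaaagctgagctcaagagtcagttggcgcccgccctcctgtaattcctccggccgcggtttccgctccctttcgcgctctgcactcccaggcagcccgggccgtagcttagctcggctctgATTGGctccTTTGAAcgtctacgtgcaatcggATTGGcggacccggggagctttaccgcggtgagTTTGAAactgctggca
It held 3 CCAAT boxes and 2 TTTGAA matches, the nearest TTTGAA 16 to 11 bases before the start. Both strands of the same window were searched in all genes tested with a promoter in the RefSeq table. CCAAT was present in 18 of 22 G2 and mitosis genes (81.8%) beside 35.1% of 10948 promoters, and TTTGAA in 9 of 22 (40.9%) beside 10.9%. The CCAAT share was not particular to this list. It was 78.9% in the cholesterol and fatty acid list, 73.9% in the unfolded protein list and 56.5% in the DNA replication list. A match describes letters in the window, not a bound site. Of the 9 genes with TTTGAA 7 fell, and Cenpa and Birc5 did not pass. Over all genes tested, TTTGAA was in 9.88% of promoters of genes that fell, 8.75% of those that rose and 11.8% of those not passing. For CCAAT these shares were 38.6%, 34.3% and 34.4%.

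Many genes of cell tension and matrix were also low in both knockdown groups, while some, such as Tnc below, were new falls with U0126. Of 17 measured YAP and TEAD target genes 9 fell and 1 rose (median −0.58, and −0.39 without the replicate 1 arrays), and 8 of the 10 were kept. Ccn2, the connective tissue growth factor, was 14672, 9432 and 8025 in control, 1442, 1396 and 817 with NF1 RNAi and 2285, 854 and 526 with U0126, a difference of −3.36 ± 0.49 (adjusted p = 0.00075). Its 6 knockdown arrays lay below every control array, and replicate 1 was the brightest in each group. Ccn1, a related matricellular protein, fell by 1.92 ± 0.36 and Ankrd1, an ankyrin repeat protein induced by stretch, by 1.13 ± 0.16. Fjx1 was the member that rose (0.56 ± 0.18), and its call was lost in 6 of the 9 fits that left out 1 array. The Ccn2 promoter is shown with matches to CATTCC, the core letters of the TEAD motif, in capitals (read on the other strand as GGAATG). It is again the 250 bases before the start on the gene's strand (RefSeq GRCr8, chr1:22624615-22624864, minus strand).
Ccn2: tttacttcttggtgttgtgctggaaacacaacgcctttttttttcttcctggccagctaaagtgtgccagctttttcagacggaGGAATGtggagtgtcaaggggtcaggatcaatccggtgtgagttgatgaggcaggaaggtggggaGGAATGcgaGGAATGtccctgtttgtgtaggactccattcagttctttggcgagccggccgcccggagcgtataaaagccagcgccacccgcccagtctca
It held 3 matches, and 6 of the 11 YAP and TEAD target genes with a promoter in the table held at least 1 (54.5%), beside 10.3% of all promoters of genes tested. Of those 6, Amotl2 did not pass and the others fell. Over all genes tested, CATTCC was in 10.2% of promoters of genes that fell, 9.1% of those that rose and 10.7% of those not passing.

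Of 21 SRF target and actin cytoskeleton genes 12 fell and the rest did not pass (median −0.55), and 9 of the 12 were kept. Without Control RNAi replicate 1, 2 members rose beside 12 falls, without the replicate 1 arrays 3 rose beside 12 falls, and with the replicate number as a block 2 rose beside 14 falls. Tagln, the actin-bundling transgelin of contractile cells, was 4981, 2907 and 2255 in control and 798, 444 and 335 with U0126, and 753, 528 and 346 with NF1 RNAi alone. Cavin3, a coat protein of caveolae, fell by 2.80 ± 0.27, Flna, filamin A, by 1.34 ± 0.09 and Zyx, the focal adhesion protein zyxin, by 1.29 ± 0.17. Vcl, vinculin, went further down with the inhibitor, by 0.40 with NF1 RNAi and by 1.06 ± 0.07 with U0126.

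Collagens and other interstitial matrix genes gave 11 falls among 25 (median −0.58). With the replicate number as a block there were 18 falls among them. This list shares 6 of the 16 fibroblast markers, whose summed level was lower with U0126 as given above, and the part of such cells in these falls was not tested. Col5a3, a chain of type V collagen, was 3246, 2689 and 2331 in control and 894, 416 and 244 with U0126, a fall by 2.60 ± 0.41. Tnc, the matrix glycoprotein tenascin C, was new with U0126, at 9312, 9752 and 9416 in control, 7471, 7056 and 6798 with NF1 RNAi and 6023, 2781 and 1923 with U0126. Replicates 2 and 3 lay well below replicate 1 in the last group. In the basal lamina and integrin list 10 of 23 fell and 4 rose, with a median of −0.56. This median was −0.32 without Control RNAi replicate 1 and −0.27 without NF1 RNAi + U0126 replicate 3, and the rises came to 2 without Control RNAi replicate 2 or NF1 RNAi + U0126 replicate 1. Lamb1, the laminin beta 1 chain, was 3328, 2226 and 2038 in control, 392, 484 and 431 with NF1 RNAi and 402, 327 and 261 with U0126, a kept fall by 2.92 ± 0.20. Itgb3, the integrin beta 3 chain, was 564, 281 and 224 in control, 281, 298 and 222 with NF1 RNAi and 37.7, 38.1 and 38.6 with U0126 (−3.07 ± 0.29, adjusted p = 6.7e-05), so that control and NF1 RNAi arrays overlapped and those with U0126 lay far below both. Timp3, an inhibitor of metalloproteases, was 5289.6, 3071 and 2853 in control and 377, 1159 and 1154 with U0126, a difference of −2.17 ± 0.41, with −2.02, −2.55 and −2.12 on its other probe sets.

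Fst, follistatin, which binds and blocks activins, had the largest fall among the kept genes. It was 1022, 394 and 365 in control, 35.8, 61.6 and 46.5 with NF1 RNAi and 27.4, 22.6 and 22.9 with U0126, a difference of −4.39 ± 0.36 that was −2.52 on its other probe set. The related Fstl3 fell by 1.78 ± 0.34. In the TGF-beta and BMP list as a whole 5 of 25 fell and 1 rose (24% passing, beside 35.5% of all genes). With the replicate number as a block 9 fell and 3 rose, and without the replicate 1 arrays 10 fell.

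Genes that cells use to cope with unfolded protein and with lack of amino acids were low too. In this list of 24, 12 fell and 1 rose (median −0.63). Without Control RNAi replicate 1 there were 9 falls. With the replicate number as a block, or without the replicate 1 arrays, there were 15 falls and 2 rises. Asns, asparagine synthetase, was 991, 626 and 674 in control, 140.0, 183 and 146 with NF1 RNAi and 359, 242 and 145 with U0126. Slc7a1, a transporter of arginine and lysine, fell by 0.93 ± 0.22, although 1 of its 2 other probe sets differed by −0.07. Phgdh, the first enzyme of serine synthesis, fell by 0.90 ± 0.23 and Pdia4, a chaperone of the endoplasmic reticulum, by 0.87 ± 0.22. The 26 genes for making cholesterol and fatty acids gave 9 falls and 4 rises, with a median of −0.23. Without Control RNAi replicate 1 they gave 7 falls and 6 rises (median −0.09), and without the replicate 1 arrays 7 falls and 8 rises (median −0.04). Hsd17b7, Dhcr7 and Insig1, all of cholesterol synthesis or its control, fell by 2.24 ± 0.19, 1.37 ± 0.13 and 1.36 ± 0.24. Scd, which desaturates fatty acids, rose instead, from 619.7, 265 and 215 to 1349.8, 1302 and 967, and this was new with U0126 (1.86 ± 0.34).

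Rises among the kept genes were led by Aass, the first enzyme of lysine breakdown, at 18.3, 57.9 and 69.5 in control, 457, 398 and 379 with NF1 RNAi and 642, 464 and 488 with U0126 (3.61 ± 0.41). Dyrk3, a dual-specificity kinase, was 31.2, 50.4 and 59.7 in control, 345, 320.5 and 333 with NF1 RNAi and 482, 515 and 597 with U0126 (3.51 ± 0.20). Met, the receptor for hepatocyte growth factor, was 55.3, 83.0 and 115 in control, 348, 389 and 455 with NF1 RNAi and 453, 599.7 and 762 with U0126 (2.85 ± 0.26). In all 3 genes the knockdown arrays lay above every control array, and the difference between the knockdown groups did not pass. Itgax rose by 2.56 ± 0.43 and Dact2, a modulator of Wnt signalling, by 2.55 ± 0.26. Ccdc88c, a partner of Dishevelled, was 51.3, 89.6 and 118 in control and 440.4, 376 and 376 with U0126 and rose by 2.27 ± 0.24.

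Tyrp1 had the largest new difference. It was 62.7, 45.5 and 52.5 in control and 47.4, 38.8 and 43.8 with NF1 RNAi, where the arrays overlapped those of control, and 3751, 3665 and 3835 with U0126. Its mean intensity was 70.0-fold that of control (adjusted p = 2.5e-08), and the gene's other probe set differed by 4.44. Gpnmb, a membrane glycoprotein of melanosomes and lysosomes, was added to: 184, 311 and 309 in control, 1638, 1862 and 1938 with NF1 RNAi and 2755, 4859 and 5589.8 with U0126. Kit, the receptor of stem cell factor, rose from 41.1, 46.4 and 48.8 to 97.8, 228 and 264 (1.97 ± 0.32). The rest of the pigment cell list did not follow. Of 15 measured members 3 rose and 2 fell (33.3% passing, beside 35.5% of all genes, median 0.05). The falls came to 1 without NF1 RNAi + U0126 replicate 1 or replicate 2 and to 0 without replicate 3 of that group. Rab38, a melanosome transport GTPase, fell by 1.05 ± 0.28, and without NF1 RNAi + U0126 replicate 2 or replicate 3 this no longer passed. Mitf, the master factor of pigment cells, was 219, 262 and 311 in control and 275, 315 and 327 with U0126, with overlapping arrays, and did not pass (adjusted p = 0.21). Dct and Tyr, the other melanin enzymes of the tyrosinase family, differed by 0.05 ± 0.09 and 0.13 ± 0.09 and did not pass.

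Promoters of Tyrp1 and Gpnmb are shown because both hold the M-box TCATGTG, the element known to bind the MITF and TFE family. They are the 250 bases before the start on the gene's strand (RefSeq GRCr8, chr5:100326875-100327124 for Tyrp1 and chr4:79340878-79341127 for Gpnmb, both on the plus strand), with the M-box in capitals (read on the other strand as CACATGA in Gpnmb).
Tyrp1: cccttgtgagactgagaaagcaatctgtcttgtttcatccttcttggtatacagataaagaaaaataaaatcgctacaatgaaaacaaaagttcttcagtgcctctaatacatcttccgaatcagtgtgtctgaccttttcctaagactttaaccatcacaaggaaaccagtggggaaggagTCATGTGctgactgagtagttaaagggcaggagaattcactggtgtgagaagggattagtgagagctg
Gpnmb: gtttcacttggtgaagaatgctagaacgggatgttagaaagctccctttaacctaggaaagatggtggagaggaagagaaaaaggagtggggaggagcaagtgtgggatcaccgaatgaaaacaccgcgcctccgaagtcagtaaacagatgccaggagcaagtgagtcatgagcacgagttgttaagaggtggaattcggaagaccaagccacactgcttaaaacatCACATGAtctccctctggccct
The match lay 68 to 62 bases before the start in Tyrp1 and 22 to 16 before it in Gpnmb. The M-box was present in 6 of the 12 pigment cell genes with a promoter in the table, beside 2.01% of promoters of all genes tested. Among those 6, Tyrp1 and Gpnmb rose, and Dct, Tyr, Mlana and Gpr143, which hold the same letters, did not pass. Over all genes tested, the M-box was in 2.08% of promoters of genes that rose, 1.4% of those that fell and 2.16% of those not passing.

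p53 target genes rose, and did so with U0126. Of 12 measured members 8 rose and 1 fell, with a median of 0.85, the highest of the 44 gene lists compared. In NF1 RNAi against control limma called 0 of them, and 3 had an unadjusted p under 0.05. Between the knockdown groups 8 were higher and 1 was lower with the inhibitor. Mdm2, the ubiquitin ligase that removes p53 and is itself switched on by it, was 1654, 1419 and 1516 in control, 2370.3, 1799.8 and 1718 with NF1 RNAi and 5453, 4781 and 4931 with U0126. Its difference was 1.72 ± 0.12 (adjusted p = 1.7e-05), and its other probe sets differed by 1.52 and 1.71. Zmat3, an RNA-binding zinc finger protein, was 731, 460.5 and 489.7 in control and 1308, 1231 and 1118 with U0126, and Aen, a nuclease of the apoptotic response, was 452, 288 and 310.1 in control and 819, 749 and 735 with U0126. The U0126 arrays of both genes lay above all control arrays. Gadd45a, a DNA damage response protein, rose by 1.10 ± 0.16, and Ccng1, cyclin G1, by 0.91 ± 0.16. Cdkn1a, the CDK inhibitor p21, was 1717, 598 and 438 in control and 2711, 2016 and 1573 with U0126. Its arrays overlapped, through control replicate 1, and its call (1.42 ± 0.48, adjusted p = 0.049) was lost in 7 of the 9 fits that left out 1 array. Sesn1, a sestrin, was the member that fell (−0.40 ± 0.12), and its call was lost under median centring and in 4 of those 9 fits.

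Lysosome genes rose by smaller amounts. Of 24 measured members 13 rose and 1 fell (median 0.32), and between the knockdown groups 6 were higher. Npc2, which carries cholesterol out of lysosomes, was 5974, 7136 and 7050.0 in control, 8580.1, 7502 and 6962 with NF1 RNAi and 11417, 10797 and 11163 with U0126, a new difference of 0.73 ± 0.09. Neu1, the lysosomal sialidase, was 209, 228 and 240.0 in control, 417, 359 and 359 with NF1 RNAi and 379, 414 and 429 with U0126 and was kept (0.85 ± 0.09). Lamp2, a membrane protein of lysosomes, rose by 0.68 ± 0.08, although its other probe set differed by −0.17. Ctsa, a protective carboxypeptidase, rose by 0.66 ± 0.10. Ctsz, a cysteine cathepsin, was the member that fell (−0.39 ± 0.08), less than with NF1 RNAi alone (−0.96 ± 0.08). Tfeb, which switches on lysosome genes, was 241, 278 and 261 in control and 276, 322 and 302 with U0126, and it passed with the replicate number as a block (adjusted p = 0.037) but not without it (adjusted p = 0.12).

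The Lamp1 promoter is shown for the E-box CACGTG and its longer form TCACGTGA, the core of the element that TFEB is known to bind in lysosome genes (250 bases before the start on the gene's strand, RefSeq GRCr8, chr16:83075064-83075313, minus strand, matches in capitals; each TCACGTGA holds a CACGTG).
Lamp1: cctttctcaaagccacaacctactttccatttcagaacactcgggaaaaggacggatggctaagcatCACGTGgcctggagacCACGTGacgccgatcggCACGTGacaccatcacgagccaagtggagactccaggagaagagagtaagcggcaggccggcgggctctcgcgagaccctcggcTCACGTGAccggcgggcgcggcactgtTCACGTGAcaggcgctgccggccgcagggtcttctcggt
It held 5 CACGTG matches, of which 2 were within TCACGTGA. CACGTG was present in 7 of 19 lysosome genes with a promoter in the table (36.8%), beside 7.94% of promoters of all genes tested, and TCACGTGA in 3 of 19 (15.8%) beside 1.33%. Of the 7, Lamp1, Ctsd, Glb1, Gaa, Atp6v0d1 and Mcoln1 rose, by 0.20 to 0.55, and Cd63 passed with the block (adjusted p = 0.037) but not without it (adjusted p = 0.065). The call of Glb1 was lost in 7 of the 9 fits that left out 1 array and that of Ctsd without NF1 RNAi + U0126 replicate 3. Lamp1 itself was 6609, 6195 and 6278 in control and 9037, 7809 and 8139 with U0126. Over all genes tested, CACGTG was in 9.4% of promoters of genes that rose, 7.67% of those that fell and 7.59% of those not passing. For TCACGTGA these shares were 2.23%, 1.4% and 1.05%.

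**Figure D3:**
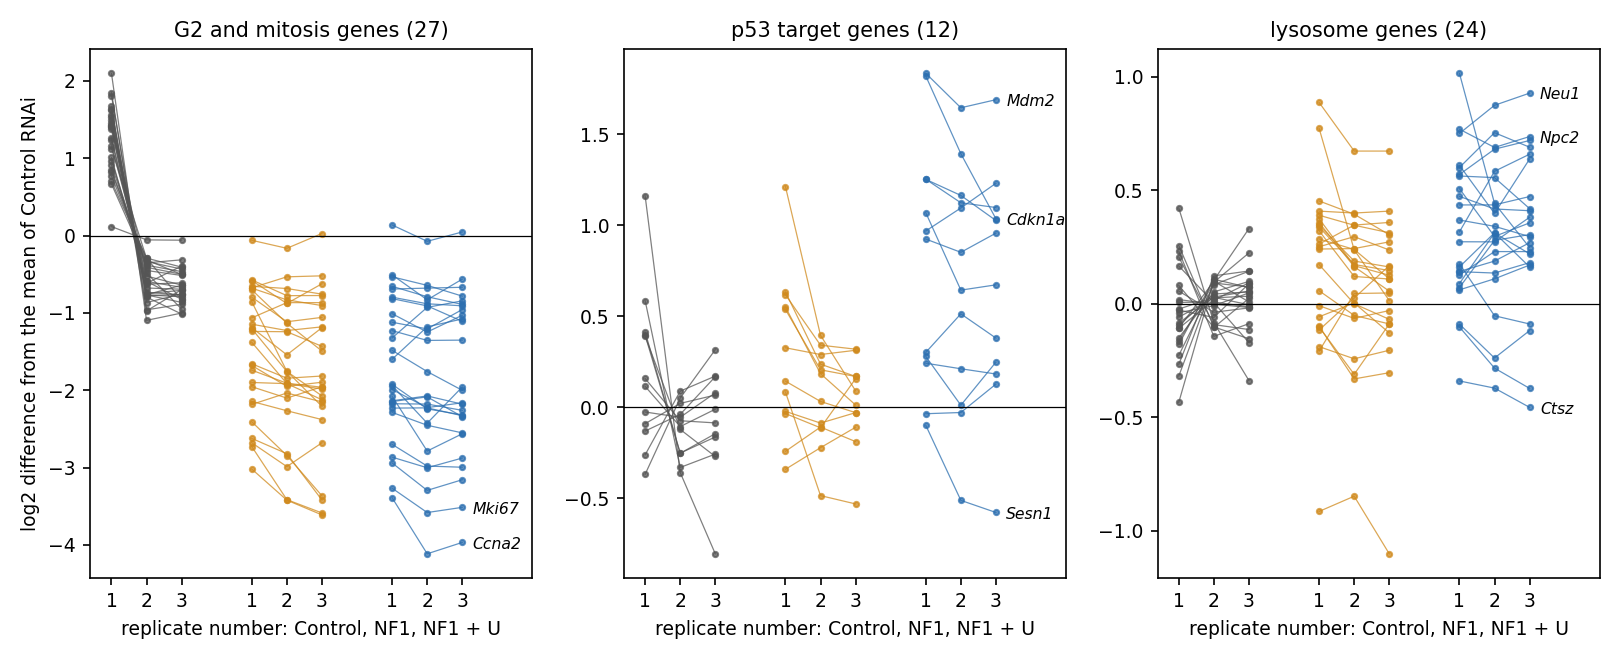
Log2 difference of each array from the mean of the 3 control arrays (vertical), 1 line per gene and group, for 27 G2 and mitosis genes, 12 p53 target genes and 24 lysosome genes, with arrays ordered by group and replicate number (horizontal). Mitosis genes are high on control replicate 1 and low on all 6 knockdown arrays, while most p53 target genes stand above 0 on the 3 arrays with U0126.

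Other new rises came from several of the lists or from none. Zfp185, a LIM domain protein, was 18.4, 16.5 and 18.2 in control, 19.2, 35.2 and 32.8 with NF1 RNAi and 137, 266 and 255 with U0126 (3.50 ± 0.28). Wscd1 was 276, 254 and 264 in control, 206, 243 and 249 with NF1 RNAi and 1478, 1723 and 1761 with U0126 (2.64 ± 0.09). Zfp503, a zinc finger repressor, was 132, 229.8 and 366 in control and 1123, 1339 and 1388 with U0126 (2.51 ± 0.31), and 2 of its 3 other probe sets differed by 0.39 and 0.07. Adora2b, an adenosine receptor, was 39.6, 40.0 and 42.0 in control, 53.8, 37.1 and 44.8 with NF1 RNAi and 175, 184 and 184 with U0126. Pfkp, a phosphofructokinase of glycolysis, was 266, 374 and 342 in control and 971, 1082 and 1029 with U0126. Taldo1, transaldolase of the pentose phosphate route, was 4814, 4927 and 5043 in control and 9610.3, 9493 and 9329 with U0126. In each of these genes the U0126 arrays stood above all control arrays. Gzmb, a granule protease of killer lymphocytes, rose as well but spread widely, at 28.7, 22.9 and 23.4 in control and 45.6, 168 and 257 with U0126.

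New falls were led after Egr1 by Sema3g, a secreted semaphorin. It was 1658, 1259 and 1003 in control, 1077, 885 and 685 with NF1 RNAi and 78.6, 67.5 and 52.2 with U0126, a difference of −4.27 ± 0.23, whereas its other probe set differed by −0.94. Gbp2, a guanylate-binding protein induced by interferon, was 2884, 5687 and 5199.8 in control, 2626, 3557 and 3514 with NF1 RNAi and 296, 482 and 285 with U0126 (−3.68 ± 0.28). Adamtsl1, a secreted ADAMTS-like protein, was 780.2, 798 and 683 in control, 1013, 995 and 818 with NF1 RNAi and 116, 105 and 129 with U0126 (−2.68 ± 0.11). The U0126 arrays of all 3 genes lay below every array of both other groups. Rgs16, which shortens G-protein signals, fell by 2.54 ± 0.41 and Mcam, a cell adhesion molecule, by 1.80 ± 0.12. Ifit2, an interferon-induced protein, fell by 1.70 ± 0.24. In the interferon list as a whole 7 of 26 fell and 2 rose (34.6% passing, beside 35.5% of all genes). The rises came to 1 in 7 of the 9 fits that left out 1 array and to 4 without the replicate 1 arrays.

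The genes that U0126 raised further were led by Gal. Gal, the neuropeptide galanin, which Schwann cells and neurons raise after nerve injury, was 90.4, 156 and 140.3 in control, 2061, 1654 and 1539 with NF1 RNAi and 4206, 4116 and 4269 with U0126. The 3 groups did not overlap, at 5.05 ± 0.19 over control (adjusted p = 1.1e-06) and 1.27 ± 0.19 over NF1 RNAi (adjusted p = 0.0027). Igf1, insulin-like growth factor 1, was 44.7, 52.2 and 56.5 in control, 259, 200.0 and 173 with NF1 RNAi and 608, 603 and 619.5 with U0126, and its other probe sets differed by 2.96 and 2.27. Its receptor Igf1r fell (−0.76 ± 0.07). Il18, a cytokine of the interleukin 1 family, rose by 2.56 ± 0.16. Pkp4, an armadillo protein of cell junctions, was 161, 121 and 148 in control and 1518, 1649 and 1753 with U0126 (3.51 ± 0.15), and Cdh3, P-cadherin, was 68.1, 53.8 and 58.1 in control and 597, 479 and 490.4 with U0126 (3.10 ± 0.25). Slc6a17, a vesicular amino acid transporter, rose by 3.25 ± 0.23 on 1 probe set while its others differed by 0.24 to 1.10.

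The genes that follow were lower with NF1 RNAi and lower still with U0126. Lgi4, a secreted protein of Schwann cells needed for myelination, was 1623, 1614 and 1567 in control, 466, 898 and 849 with NF1 RNAi and 85.8, 106 and 112 with U0126. Its difference was −3.98 ± 0.22 (adjusted p = 6.1e-06), against −1.17 ± 0.22 with the knockdown alone. L1cam, an adhesion molecule that binds axons, was 1882, 1799.8 and 1688 in control, 357, 524 and 439 with NF1 RNAi and 140.3, 151 and 122 with U0126 (−3.69 ± 0.14). Ttyh1, a membrane protein of glia, was 2265, 3241 and 3309 in control, 487, 1544 and 1596 with NF1 RNAi and 115, 257 and 198 with U0126 (−4.00 ± 0.46). Dhh, the Desert hedgehog ligand by which Schwann cells organise the perineurium, fell by 1.24 ± 0.14, and by 0.62 without the inhibitor. Akap12, a scaffold for protein kinase A, fell by 3.32 ± 0.30, and Gfra3, the artemin receptor subunit, by 3.11 ± 0.19.

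Myelin protein genes gave 9 falls and 3 rises among 21 measured (median −0.35). The rises came to 1 without Control RNAi replicate 2 or replicate 3 and without NF1 RNAi + U0126 replicate 1 or replicate 2. Pmp22, a protein of compact myelin, was 6640.3, 7200.4 and 7994 in control, 966, 2395 and 2778 with NF1 RNAi and 1369, 2230.0 and 2139 with U0126. Both knockdown groups were below all control arrays, and the inhibitor made no difference that passed (0.01 ± 0.36, adjusted p = 0.99). Pmp2, the myelin fatty acid-binding protein, fell by 1.17 ± 0.16 and Prx, periaxin, by 0.54 ± 0.13. Mbp, myelin basic protein, was 917, 869 and 836 in control and 998, 647 and 709.9 with U0126 and did not pass (adjusted p = 0.42), and its 2 other probe sets differed by −0.93 and −0.48. Egr2, the transcription factor that drives myelin genes, fell further with U0126, at 108, 124 and 94.9 in control, 42.9, 62.8 and 55.3 with NF1 RNAi and 37.7, 34.2 and 35.3, although its other probe set differed by −0.13. Gfap, the glial filament protein of immature and injured Schwann cells, fell by 1.95 ± 0.32. In the wider lineage and repair list 8 of 24 fell and 4 rose. With the replicate number as a block 7 rose, without Control RNAi replicate 3 or without the replicate 1 arrays 8 rose, and 5 fell without NF1 RNAi + U0126 replicate 3. Sox2, Ngfr and Gap43, markers of immature cells, differed by 0.44 ± 0.18, 0.49 ± 0.17 and −1.17 ± 0.55. Each missed the threshold without the block (adjusted p = 0.084, 0.051 and 0.13) and passed with it (adjusted p = 0.0022, 0.036 and 0.0046).

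Genes that crossed control were led by the chemokine Ccl2, which draws monocytes and macrophages into nerve. Ccl2 was 1197, 752 and 308 in control, 9117, 4547 and 4310.2 with NF1 RNAi and 27.2, 25.6 and 28.5 with U0126. The knockdown raised it (3.11 ± 0.45) and the inhibitor left it below every control array (−4.54 ± 0.45, adjusted p = 9.8e-05), with −7.65 ± 0.45 between the knockdown groups. Ccl7, a related chemokine, was 122, 89.6 and 51.8 in control, 661, 188 and 167 with NF1 RNAi and 27.5, 27.0 and 31.4 with U0126. Its fall against control (adjusted p = 0.041) was lost in 5 of the 9 fits that left out 1 array. Synpr, a synaptic vesicle protein, went the opposite way, at 177, 189 and 226 in control, 53.6, 31.0 and 27.6 with NF1 RNAi and 1039.9, 514 and 414 with U0126. Lurap1l was 62.6, 52.6 and 63.8 in control, 26.1, 37.8 and 30.4 with NF1 RNAi and 268, 468 and 498 with U0126, and Il11ra1, the interleukin 11 receptor, was 174, 209 and 231 in control, 101, 128 and 125 with NF1 RNAi and 428, 512 and 548 with U0126. For these 3 the arrays of each group lay apart from those of the others. Nr4a1, an immediate-early nuclear receptor, and Gdnf, a survival factor for neurons, crossed downward, with −0.63 ± 0.10 and −0.47 ± 0.16 against control. The call of Gdnf (adjusted p = 0.047) was lost with the replicate number as a block (adjusted p = 0.061) and in 5 of the 9 fits that left out 1 array.

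Genes that came back no longer passed against control. Htr2b, a serotonin receptor, was 27.7, 15.3 and 11.7 in control, 275, 144 and 129 with NF1 RNAi and 38.1, 23.4 and 32.2 with U0126. It no longer passed against control (0.80 ± 0.35, adjusted p = 0.11), although it did with the replicate number as a block (adjusted p = 0.0082). Nefm and Nefl, the medium and light neurofilament chains, which injured Schwann cells also make, had fallen by 2.03 and 2.25 with NF1 RNAi. Nefm was 2503, 3660.2 and 3990.1 in control, 547, 915 and 1075 with NF1 RNAi and 2299, 2502 and 2358 with U0126. Nefl was 1929, 3188 and 3756 in control, 347, 680.1 and 904 with NF1 RNAi and 1245, 1535 and 1612 with U0126. The U0126 arrays of both lay between the other groups, and their differences from control passed with the block (adjusted p = 0.043 for Nefm and 0.0025 for Nefl) and not without it (adjusted p = 0.17 and 0.057). Car8, a carbonic anhydrase-related protein, was 65.6, 61.4 and 41.5 in control, 601, 208 and 147 with NF1 RNAi and 58.3, 52.2 and 64.6 with U0126, and Vldlr, the very low density lipoprotein receptor, was 1107, 911 and 884 in control, 451, 330.5 and 286 with NF1 RNAi and 1143, 647 and 768 with U0126. In these 2 genes the U0126 arrays overlapped those of control. Phldb2, a cortical anchor of microtubules, did not pass without the block (adjusted p = 0.5) and did with it (adjusted p = 0.018).

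Partial return was seen in 77 genes. S100b, the calcium-binding protein used to mark Schwann cells, was 8641, 10327 and 10221 in control, 16975, 16554 and 16941 with NF1 RNAi and 12993, 12935 and 12931 with U0126, and the 3 groups did not overlap. Synm, the filament protein synemin, was 597, 824 and 868 in control, 2884, 3074 and 2992 with NF1 RNAi and 1526, 1689 and 1864 with U0126, although its other probe sets differed by 0.12 and 0.04. Tyro3, a receptor tyrosine kinase that binds Gas6, had the opposite course, at 396, 439 and 402 in control, 123, 166 and 128 with NF1 RNAi and 258, 192 and 217 with U0126. Amph, amphiphysin, and Synj2 and Ptprz1, a pair of phosphatases of lipids and of tyrosines, still passed upward by 0.74 ± 0.24, 0.70 ± 0.20 and 0.66 ± 0.21, and each lost that call in at least 3 of the fits that left out 1 array. The other probe set of Ptprz1 differed by −1.12.

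**Figure D4:**
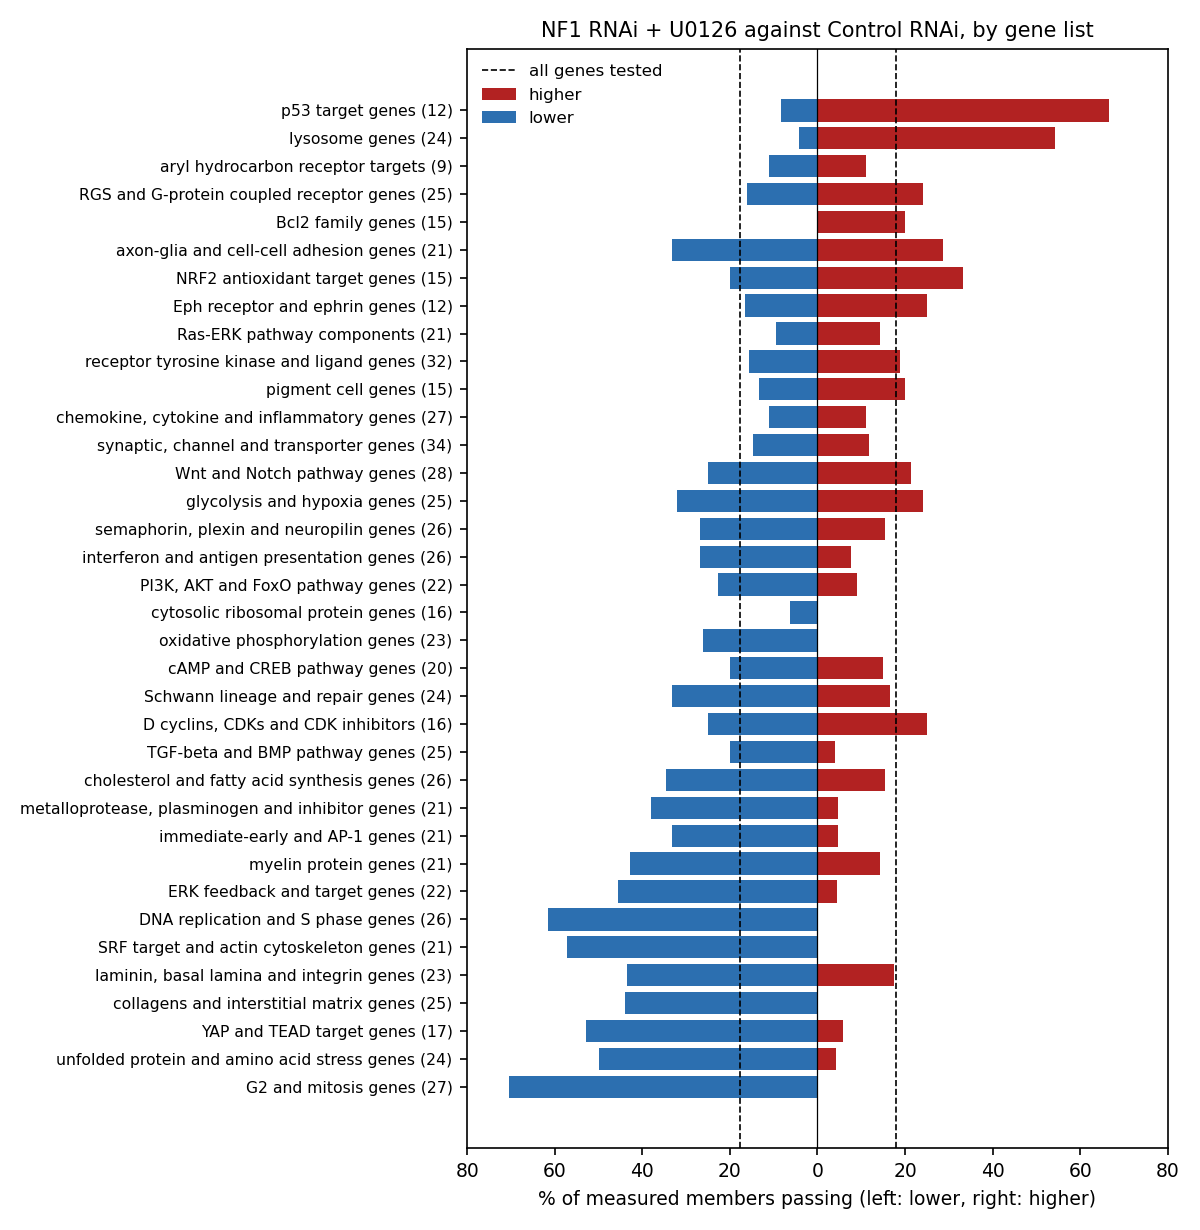
Share of measured members that passed higher (red, to the right) and lower (blue, to the left) with NF1 RNAi + U0126 against Control RNAi, in percent, for 36 gene lists ordered by median log2 difference, with the number measured in brackets and dashed lines at the shares for all genes (17.9% and 17.6%). The p53 target and lysosome lists extend furthest to the right, and the G2 and mitosis, DNA replication and actin lists furthest to the left.

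Wnt and Notch pathway genes went both ways, with 6 rises and 7 falls among 28. Hes1, the Notch effector, was 829.8, 482 and 429 in control, 233, 178 and 158 with NF1 RNAi and 139, 79.6 and 82.3 with U0126, a kept fall by 2.51 on the log2 scale. The Wnt-responsive factors Lef1 and Tcf7 were new falls. Lef1 was 664, 267 and 250.3 in control, 306, 288 and 252 with NF1 RNAi and 153, 108 and 103 with U0126 (−1.56 ± 0.33), and Tcf7 differed by −1.28 ± 0.14. Their U0126 arrays lay below all control arrays. Sfrp1, a secreted Wnt antagonist, fell by 1.03 on the log2 scale. The Wnt modulator Dact1 was 165, 118 and 149 in control, 329, 313 and 329 with NF1 RNAi and 682, 731 and 773 with U0126, so that it rose with the knockdown and again with the inhibitor (2.34 ± 0.11). Fzd1, a Wnt receptor, was a new rise (1.35 ± 0.20), and Axin2, a feedback inhibitor of the pathway, was a kept one (0.92 ± 0.10).

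Glycolysis and hypoxia genes also went both ways, with 6 rises and 8 falls among 25. Slc2a1, the glucose transporter GLUT1, rose by 0.97 ± 0.07, whereas Slc2a3, which encodes GLUT3, was a new fall (−1.66 ± 0.20) whose other probe set differed by −0.62. Hk2, hexokinase 2, was 43.8, 37.3 and 37.7 in control, 45.6, 42.6 and 44.0 with NF1 RNAi and 112, 67.7 and 100.2 with U0126, a new rise of 1.19 ± 0.16. Pgam1, a phosphoglycerate mutase, and Aldoc, aldolase C, were kept falls (−1.36 ± 0.19 and −1.10 ± 0.13). Eno2, the neuronal enolase, was a kept rise (1.18 ± 0.08). The glucose transporters Slc2a1 and Slc2a3 thus differed from control in opposite directions.

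Adhesion genes gave 6 rises and 7 falls among 21. Alcam, an adhesion molecule of the immunoglobulin family, was 2431, 1179 and 1062 in control, 544, 480.4 and 449.7 with NF1 RNAi and 754, 550.5 and 465 with U0126, a kept fall (−1.33 ± 0.30). Cadm4, by which Schwann cells bind axons along the internode, fell as well (−0.82 ± 0.20). Cdh13, T-cadherin, rose by 1.16 ± 0.08, with 1.08 and 1.24 on its other probe sets. Chl1, a relative of L1cam, and Ninj1, an adhesion protein raised after nerve injury, were kept rises (0.91 ± 0.23 and 0.93 ± 0.09). Among cell cycle inhibitors, Cdkn2a rose by 0.84 ± 0.09 and Cdkn2d fell (−0.74 ± 0.07), both further than without U0126, and Rbl1, the pocket protein p107, was a kept fall (−1.35 ± 0.12).

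Some of the other lists are given by their counts, beside 17.9% higher and 17.6% lower among all genes. Of 15 NRF2 antioxidant target genes 5 rose and 3 fell (53.3% passing), and without the replicate 1 arrays 7 rose and 4 fell. Between the knockdown groups 5 of them were higher with U0126, beside 6.71% of all genes. In that comparison limma called 0 of them lower, and 1 was lower at an unadjusted p under 0.05. The 32 receptor tyrosine kinases and their ligands gave 6 rises and 5 falls, with 8 falls without the replicate 1 arrays. The 25 RGS proteins and G-protein coupled receptors gave 6 rises and 4 falls. Without Control RNAi replicate 1 these were 9 rises and 3 falls, and without the replicate 1 arrays 10 rises and 4 falls. Among 27 chemokines, cytokines and inflammatory genes 3 rose and 3 fell, and 5 fell with the replicate number as a block. Without the replicate 1 arrays 5 rose and 5 fell, and 1 rose without Control RNAi replicate 3, NF1 RNAi replicate 2 or 3, or NF1 RNAi + U0126 replicate 2. Of 22 genes of the PI3K, AKT and FoxO route, which Ras can use without MEK, 2 rose and 5 fell. The rises came to 1 without Control RNAi replicate 2 or NF1 RNAi + U0126 replicate 1 or 3. The falls came to 3 without Control RNAi replicate 2 or replicate 3 and to 2 without NF1 RNAi + U0126 replicate 2. Cytosolic ribosomal protein genes moved little, with 1 fall among 16 (Rpl3, −0.33 ± 0.07) and a median of −0.04. Of 23 oxidative phosphorylation genes 6 fell, by at most 0.50. The Bcl2 family gave 3 rises among 15, Bcl2l2, Mcl1 and Bad, of 0.28 to 0.51. With the replicate number as a block 4 members rose. Without the replicate 1 arrays 2 rose, and Bad no longer passed (0.23, adjusted p = 0.071). Aryl hydrocarbon receptor targets gave 1 rise and 1 fall among 9: Tiparp rose by 1.01 ± 0.08 after a fall with NF1 RNAi alone (−0.24), and Cyp1a1 fell by 1.67 ± 0.22.

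Near the threshold, Mad2l1, Dctpp1 and Man1c1 were just inside, with differences of −0.86, −0.69 and 0.24, and Txndc11, Spsb2 and Eva1a were just outside, with −0.24, 0.26 and 0.49. The latter 3 passed with the replicate number as a block (adjusted p = 0.032, 0.014 and 0.034).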

How the data were processed

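Total RNA of primary rat Schwann cells (extracted with RNeasy columns, per the labels' protocols) was measured on 9 expression arrays, 3 in each of 3 groups. The deposited value table holds linear probe set intensities that the authors had normalized with RMA, per the submitters' processing notes, and the sources used here give no software version. RMA corrects background, makes the distributions of all arrays alike and summarises the probes of a set, so a shift shared by most genes cannot be seen, and array data carry no read depth. The number of arrays limits the precision.

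Of 31099 probe sets 57 controls were left out. The platform annotation pairs 20826 of the rest with exactly 1 gene, 436 with several and lists no gene for 9780. Symbols were brought up to date through RefSeq gene IDs. Of the 4526 genes with more than 1 probe set, the brightest on average was used. Values were taken as log2(intensity + 1) and fitted over 9 arrays with limma 3.58.1 in R 4.3.3 as a group-means model with 6 residual degrees of freedom and no block, with p-values adjusted over 14213 genes and a threshold of 0.05. The script was tested on simulated data.

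Arrays with the same replicate number deviated from their group means together: across genes, their correlations were 0.17 to 0.62 over 9 pairs, against −0.52 to 0.40 over 18 pairs of different numbers. The labels do not say what the number marks. A fit with it as a block is given beside a described gene where it ends or makes a call, and beside some list counts, most of which it changed. With it the rises among lysosome genes came to 16. Falls came to 12 in the ERK, 9 in the immediate-early, 13 in the basal lamina, 11 in the myelin and 9 in the interferon list. The 44 gene lists (849 of 951 members measured) and the genes named were chosen with earlier results of these data known. Named genes were those with the largest rises and falls among genes without overlap of the arrays, and those with the largest changes in each pattern, with or without overlap. Provisional symbols were left out of both. The genes nearest the threshold and list members were also named, and the list members described were chosen after their values were seen. So were the promoters shown. Alternatives changed the block, the scaling, the pseudocount, the filter, the choice of probe set, the array weights, the threshold and the arrays left out. Promoters are RefSeq sequences of the rat assembly GRCr8, where 10948 of the genes had one. Genome positions of probe sets were not used here.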

Additional observations from a re-analysis of the deposited data

How the results depend on the processing

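The number of genes passing against control ranged from 4107 to 5089 when 1 array was left out and was 5793 with the replicate number as a block, which included 98.3% of the calls made without it. Between the knockdown groups, leaving out 1 array gave 1110 to 2587 genes. An adjusted p under 0.01 left 3303 genes against control (1606 higher), 904 between the knockdown groups and 2116 in NF1 RNAi against control, with 1452 kept and 485 new. With a 2-fold limit these were 874 (284 higher, 590 lower), 281 and 525, with 352 kept and 154 new. Testing all 31042 probe sets gave 8710 (4395 higher, 4315 lower), 3113 and 6338, with 3944 kept and 1391 new, from more features tested. Array weights gave 7038 genes against control (3834 higher, 3204 lower), 3261 between the knockdown groups and 5980 in NF1 RNAi against control; the cause was not tested. Of the genes that passed against control, 17 turned sign when the probe sets of a gene were averaged and 0 did so under the other alternatives at gene level. Among the genes named by rule signs turned for 5, and 4 of these had not passed against control: Car8 (−0.069 with array weights, −0.12 to 0.20 without 1 array), Fam171b (−0.47, and −0.49 to 0.29), Tcap (−0.27, and −0.18 to 0.21) and Zfp385b (−0.68 to 0.057 without 1 array). Without the replicate 1 arrays Fam171b was at −0.69 and passed as a fall (adjusted p = 0.00088), and Tcap was at −0.33 and did not pass (adjusted p = 0.12). Ptprz1, which passed upward, was at −0.23 as the mean of its probe sets. The medians of the ERK, immediate-early, G2 and mitosis, S phase, YAP, SRF, collagen, myelin, p53 and lysosome lists kept their sign under median centring and quantile normalization. Apart from the genes and lists given with it above, the replicate block changed no call of a gene described. Groups of 3 arrays are too small for a check of single outlying arrays.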
